A study of Homo sapiens with 4 samples.

Results

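The subject is 8 genes at which RNA from the mitochondrial genome, or from nuclear copies of it, carried peaks in RKO, a human line grown from a colorectal cancer. MT-RNR2, MT-CO2, MT-ND4L and MT-ND4 lie on the mitochondrial genome, and the pseudogenes MTCO1P12, MTCO2P12, MTND1P23 and MTATP6P1 lie on chromosome 1. They were chosen by the peak lists themselves, from 58735 annotated genes, because a called peak overlapped them. The cells were wild type (WT) or overexpressed ZCCHC7 (OE), with no other treatment in the labels, and how the overexpression was made is not stated there. Each genotype gave 1 input library of total RNA and 1 immunoprecipitate (IP), so nothing here has a replicate check and no test between genotypes was made. The antibody is open: the sample labels name one against ZCCHC7, and the protocol names one against SRSF1 followed by one against m6A. The genes were overlapped by 3 of 57 WT peaks, holding 3 of 67 summits, and by 4 of 30 OE peaks, holding 11 of 39 summits.

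Depth differed between the libraries. The IP held 896288 tags (aligned reads) in WT and 2725742 in OE, and the input held 207641 and 396820. Tags at a summit are therefore also given per 1000000 tags of the library, called depth-scaled tags, with exact Poisson or binomial 95% intervals that cover counting error only, since sequenced reads are not independent molecules. No peak or splicing event was listed for ZCCHC7 or for the 6 markers of colon epithelium looked up (EPCAM, KRT8, KRT18, KRT20, CDX2, VIL1), so neither the overexpression nor the cell type could be checked here.

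The mitochondrial genome is a small circular DNA that is transcribed from both strands into long precursor RNAs. These are cut, largely at the tRNAs that lie between the other genes, into ribosomal RNAs and into mRNAs for subunits of the respiratory chain and ATP synthase. Pieces of mitochondrial DNA have also been inserted into nuclear chromosomes, where they are annotated as pseudogenes. Because such a copy resembles its source, short reads can be hard to place between them. The alignment names in the file headers contain "uni", with no word on whether reads with several matches were dropped.

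The peak found on chromosome 1 in both lists had its summit in neither of the pseudogenes it overlapped. The 140 bases between MTCO1P12 and MTCO2P12 held the WT summit at 632663 and the OE summit at 632673. Both fall in MIR12136, a microRNA hairpin that RefSeq (GRCh38.p14) places at chr1:632615-632685 on the minus strand and that the deposited annotation does not list. The hairpin is shown because the whole of it, 71 bases, lay under both peaks. Its capitals mark the 11 bases from the OE summit (base 13) to the WT summit (base 23). In the mature microRNA, at chr1:632668-632685, capitals mark the seed, bases 2 to 8.
MIR12136 hairpin: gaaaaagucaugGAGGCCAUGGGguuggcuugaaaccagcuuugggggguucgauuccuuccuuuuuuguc
hsa-miR-12136: gAAAAAGUcauggaggcc
Set beside the mitochondrial genome by a single difference between gene starts, 625169 bases, the hairpin covers positions 7446 to 7516. MT-TS1, a mitochondrial serine tRNA on the minus strand, runs from 7446 to 7514. The starts of the flanking MTCO1P12 and MTCO2P12 differ from those of their counterparts by 625170 and 625171 bases. The placement is therefore open by up to 2 bases, and a match of ends to the base is not shown. The tags were extended to 226 bases in WT and 237 in OE before peaks were called, so a summit does not resolve single bases.

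MT-RNR2, the large ribosomal RNA of mitochondria (ENSG00000210082, mitochondrial positions 1671 to 3229), had the tallest summit of the WT list. At position 1821, near the start of the gene, 13245 IP tags covered the summit, or 1.48% of the WT IP (Clopper-Pearson 95% interval 1.45 to 1.5). The input was high at the same place, with 1382 tags or 0.666% of the library (0.631 to 0.701). IP over input was therefore 2.22 per library depth (2.1 to 2.35), and the authors' fold was 2.22 as well, which ranked 61 of 67 in the WT list. The next highest local input background in that list was 59 tags. The OE list holds no peak in MT-RNR2. An equal depth-scaled level would have been 40280 tags in OE, above the 9661 of its tallest summit, but the list gives no IP or input value where no peak was called, so the level in OE was not compared.

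Among the mRNAs, the peak over MT-ND4L and MT-ND4 was in both lists. These genes encode subunits of respiratory complex I and overlap each other by a few bases, with MT-ND4L (ENSG00000212907) at 10470 to 10766 and MT-ND4 (ENSG00000198886) at 10760 to 12137. The WT peak ran from 10598 to 10900, 303 bases, with 165 IP tags (95% interval 141 to 192) at its summit at 10785. The OE peak covered all of it, and its nearest summit, at 10794, held 775 tags (721 to 832). The summits lay 9 bases apart, both within MT-ND4. Depth-scaled, WT stood at 184.1 and OE at 284.3 tags per 1000000.

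The input at that place moved the other way. The peak caller compared each summit with the highest of several local estimates of input, and here a window of 1000 bases around the summit set it in both lists. That window held 79 input tags in WT and 35 in OE, though the OE input was the deeper library. Per 1000000 input tags this was 380.5 in WT and 88.2 in OE, so OE stood at 0.232 times WT (0.151 to 0.349). The authors' fold over background was 2.08 in WT, 65th of 67, and 12.2 in OE, 6th of 39. The larger gap in fold than in IP tags thus came with a lower input in OE. Each input is 1 library, and whether the input of these libraries differed for reasons of sampling was not tested.

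In OE the mitochondrial peak was a single stretch from 7916 to 11566, 3651 bases long, with 8 summits. The longest other OE peak had 921 bases, and the longest WT peak 1693. The stretch began within MT-CO2 (ENSG00000198712, 7586 to 8269), a subunit of cytochrome c oxidase, of which it covered 354 of 684 bases. It covered all of MT-TK, MT-ATP8, MT-ATP6, MT-CO3, MT-TG, MT-ND3, MT-TR and MT-ND4L, and ended after 807 of the 1378 bases of MT-ND4. All 10 genes are on the plus strand of the annotation.

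The 8 summits of this stretch had similar tag counts, from 624 to 820, and the list gives no value between them. MT-CO2 had 712 tags at 8039, the overlap of MT-ATP8 and MT-ATP6, which encode ATP synthase subunits, had 663 at 8554, and MT-ATP6 had 820 at 9122. MT-CO3, another cytochrome c oxidase subunit, had 804 tags at 9400. The tRNA genes MT-TG (glycine) and MT-TR (arginine) had 691 tags at 10047 and 624 at 10461, and MT-ND4 had 775 at 10794 and 723 at 11267. The mean over the 8 summits was 726.5 tags with an SD of 68.8, a coefficient of variation of 9.47%. The highest was 1.31 times the lowest (1.18 to 1.46). That interval takes no account of their being picked as the extremes of the 8, and duplicate tags were kept. Summits were spaced by 278 to 647 bases, with a median of 473. They belong to 1 peak of 1 library and are not independent measurements.

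**Figure D1:**
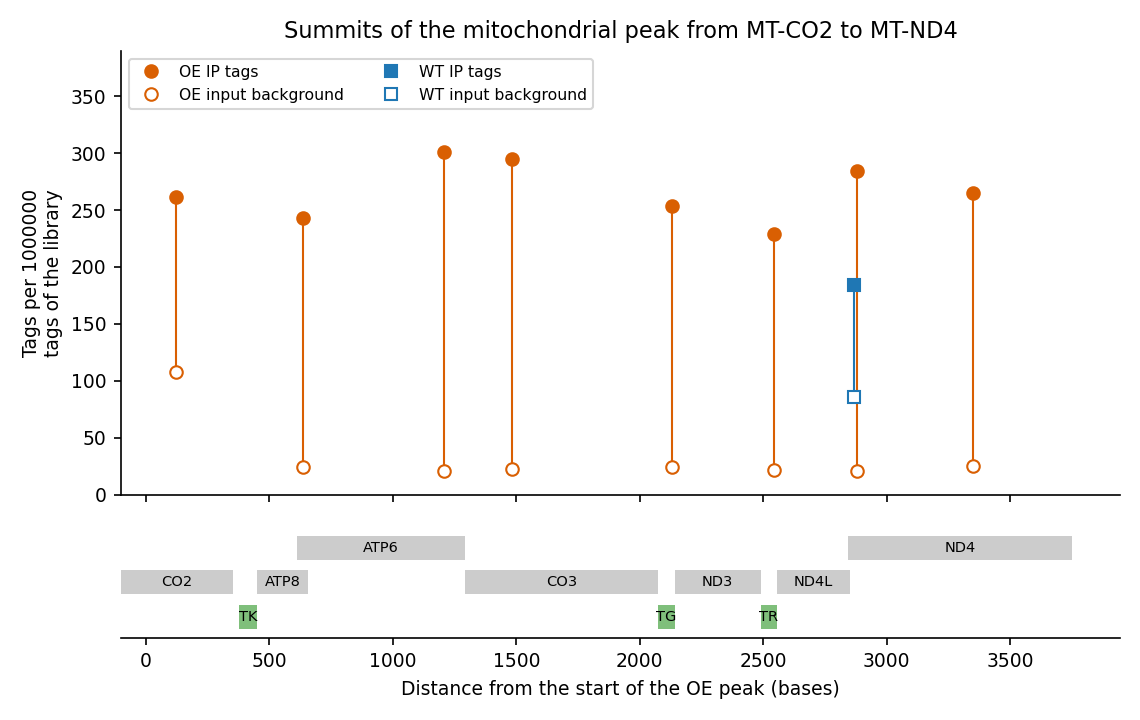
Depth-scaled tags (tags per 1000000 of the library, vertical axis) at each summit, by distance from the start of the OE mitochondrial peak in bases; filled points are IP, open points local input background, circles OE and the square pair WT, with genes drawn below and tRNA genes in green. OE IP points lie between 228.9 and 300.8; the WT pair shows 184.1 over a background of 86.

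Local background set 1 summit apart. At 7 of the 8 summits it lay between 8.3 and 10 input tags, set by the summit itself at 9400 and 11267 (9 and 10 tags) and by the window of 1000 bases at the other 5 (35 to 40 tags). At the MT-CO2 summit it was 42.9, which fits a window of 10000 bases with 1811 input tags and neither of the shorter ones. The fold there was 2.38, 38th of 39 in the list, against 9.31 to 13 at the other 7. The wide window of the MT-CO2 summit starts at 3039 and takes in the last 191 bases of MT-RNR2. That of the next summit, 515 bases on, starts at 3554, takes in none of MT-RNR2, and can hold at most 400 input tags, 1411 fewer. Between these starts also lie MT-TL1 (3230 to 3304) and the beginning of MT-ND1 (from 3307). If the window assignment holds, at least 1411 of the 1811 input tags lay between the starts at 3039 and 3554. The list does not say how they divide among MT-RNR2, MT-TL1 and MT-ND1, and the source of the difference was not tested. With the background of the next summit, MT-CO2 would have had a fold of 9.99. Its IP tags were 1.07 times those of that neighbour.

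Of the nuclear copies, the peak between MTCO1P12 (ENSG00000237973, 631074 to 632616) and MTCO2P12 (ENSG00000229344, 632757 to 633438) was in both lists. These are pseudogenes of cytochrome c oxidase subunits. The WT peak (632535 to 632791, 257 bases) had 48 tags (35.4 to 63.6) over 2 input tags, with a fold of 4.04. The OE peak (632500 to 632827, 328 bases) had 222 tags (193.8 to 253.2) over 1 input tag, with a fold of 16.7. That was the highest fold of the OE list, just above the next at 16.2. Depth-scaled, WT stood at 53.6 and OE at 81.4 tags per 1000000. So few input tags leave the background wide open: the exact Poisson interval is 0.242 to 7.22 around 2 tags and 0.0253 to 5.57 around 1.

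MTND1P23 and MTATP6P1 had a peak in OE alone. MTND1P23 (ENSG00000225972, 629062 to 629433), a copy of the end of a complex I subunit gene, had a peak at 629143 to 629449 with 103 tags (84.1 to 124.9) and a fold of 8. MTATP6P1 (ENSG00000248527, 633696 to 634376), a copy of an ATP synthase subunit gene, had one at 633864 to 634165 with 96 tags (77.8 to 117.2) and a fold of 7.49. Each rested on 1 input tag, and unlike the shared peak each had its summit inside the pseudogene. Their tags did not differ beyond counting error, with a ratio of 1.07 (0.805 to 1.43), whereas the summit between MTCO1P12 and MTCO2P12 had 2.16 times the tags of MTND1P23 (1.7 to 2.75) and 2.31 times those of MTATP6P1 (1.81 to 2.97). At the depth-scaled level of OE, WT would have held 33.9 tags at MTND1P23 and 31.6 at MTATP6P1. The WT list holds 22 and 19 summits with fewer tags than these, down to 9, but calling also depends on local background. The summit with 9 tags stood over 0.226 input tags, and the shared chromosome 1 peak over 2. The list gives no WT tags or background at either pseudogene, so why no WT peak was called there was not tested.

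The 4 pseudogenes belong to 1 copied stretch. In the deposited annotation 7 copies of mitochondrial genes follow each other over 5861 bases, in mitochondrial order and on the plus strand: MTND1P23, MTND2P28, MTCO1P12, MTCO2P12, MTATP8P1, MTATP6P1 and MTCO3P12. The starts of 6 of them differ from those of their mitochondrial counterparts by the same number of bases, to within 2. Of the 7 copies, 4 had an OE peak and MTND2P28, MTATP8P1 and MTCO3P12 had none in either list. A long gene on the other strand, AL669831.3, spans them all. The peak lists carry no strand, so tags of the copies and of that gene cannot be told apart.

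Placement used these starts with the same difference of 625169 bases, so positions carry their spread of 2 bases. Aligned sequence was not used here. The stretch corresponds to mitochondrial positions 3893 to 9753. The peak shared by both lists then corresponds to a summit at 7494 in WT and 7504 in OE, in MT-TS1, and the OE peak at MTND1P23 to 4124 in MT-ND1. Neither list has a mitochondrial peak at those positions: the summits precede the OE mitochondrial peak by 412 and 3792 bases. The OE summit at MTATP6P1 corresponds to 8843 and does fall under that peak, but between its summits, 289 bases after the one at 8554 and 279 before the one at 9122. Those neighbours had 6.91 and 8.54 times its tags. Nuclear and mitochondrial summits of the same list thus did not coincide at any of the counterparts.

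**Figure D2:**
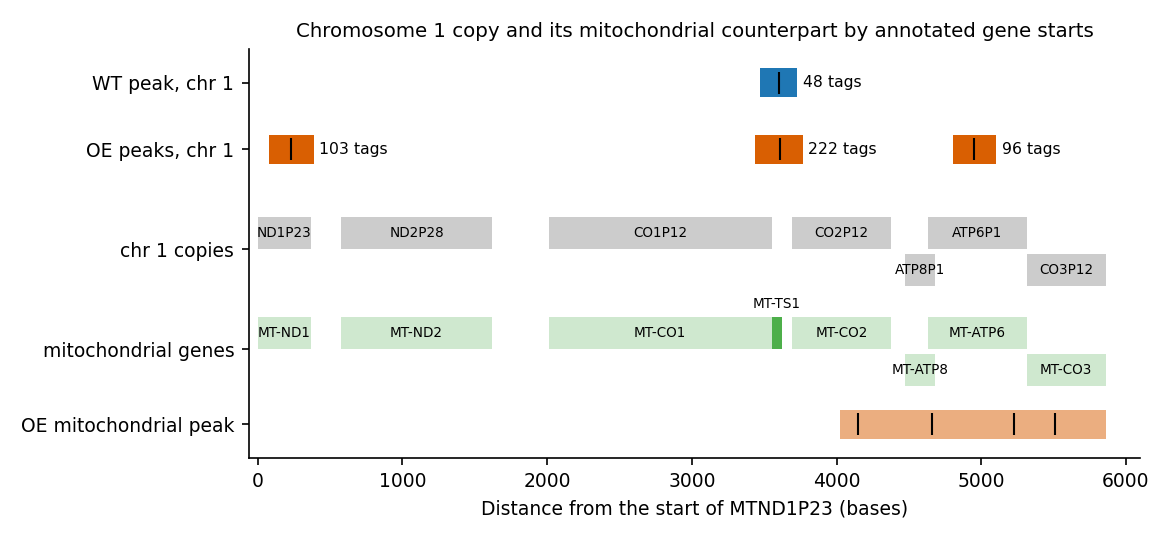
Peaks (coloured boxes, summits as black ticks, IP tags beside them) and genes along the chromosome 1 copy, by distance from the start of MTND1P23 in bases, with the corresponding mitochondrial genes and the part of the OE mitochondrial peak that falls in this range set below by annotated gene starts. The peak with 48 tags in WT and 222 in OE stands over the counterpart of MT-TS1, between MTCO1P12 and MTCO2P12.

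The OE mitochondrial peak itself lay partly inside the copied range, with 50.3% of its bases there. The 4 summits inside had 663 to 820 tags (mean 749.8), and the 4 outside had 624 to 775 (mean 703.2). The ranges overlap. These are summits of a called peak only: of the 5861 bases of the copied range, 1838 correspond to bases under that peak, and the list gives no mitochondrial value for the rest. Other nuclear copies, of 394 that the annotation names, had no peak in either list.

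Compared within a list, mitochondrial summits had more tags than the nuclear ones. In OE the mitochondrial summits held 624 to 820 tags and the nuclear ones 96 to 222, without overlap. The medians differed 6.97-fold, at 717.5 and 103. In WT the tags were 165 and 13245 against 48. Fold over background did not separate them in the same way. In OE it ran from 2.38 to 13 on the mitochondrial genome, with a median of 9.68, and from 7.49 to 16.7 on chromosome 1, with a median of 8. The ratio of these medians was 0.826 and turned to 1.13 with geometric means, so no order is given. In WT the 1 nuclear summit had 1.88 times the median fold of the 2 mitochondrial ones.

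**Figure D3:**
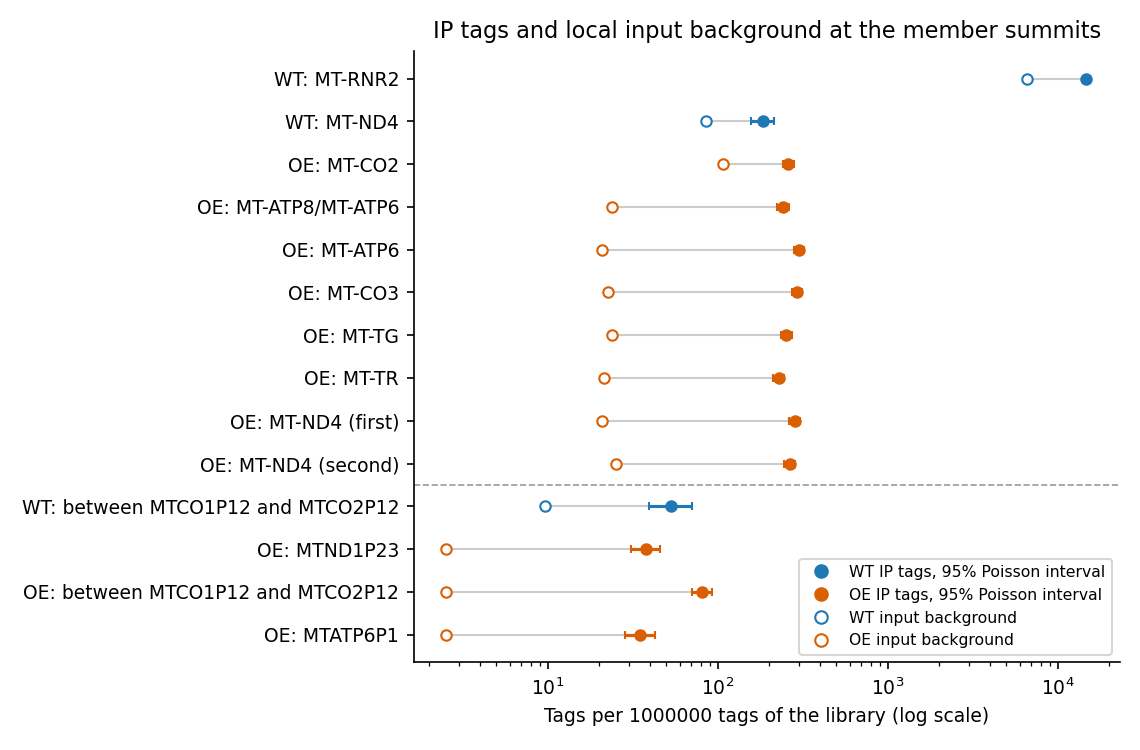
Depth-scaled IP tags (filled, with 95% Poisson intervals) and local input background (open) at all 14 summits on a log axis of tags per 1000000 of the library, mitochondrial summits above the dashed line and chromosome 1 summits below it, WT in blue and OE in orange. Backgrounds reach 6656 at MT-RNR2 and lie near 2.52 at the 3 nuclear summits of OE.

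By the authors' q, which was under 0.05 at 40.3% of all WT summits and 56.4% of all OE summits, 1 of the 3 WT summits passed, that of MT-RNR2, and all 11 OE summits did. The genes were chosen for having peaks, so these counts are a description.

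Between genotypes, both shared peaks had more depth-scaled tags in OE. OE stood at 1.54 times WT at MT-ND4L and MT-ND4 (1.3 to 1.84) and at 1.52 times between MTCO1P12 and MTCO2P12 (1.11 to 2.12). Of all 16 peaks in both lists 12.5% were higher beyond counting error, which is these 2, and the same 12.5% had a higher fold in OE. In the other 14, the tag ratio ran from 0.234 to 1.26 with a median of 0.314, and the fold in OE was 0.0831 to 0.819 times that in WT. Of those 14, 12 were lower in depth-scaled tags beyond counting error and 2 were not distinguished. The authors' fold was 5.89 times as high in OE at the mitochondrial peak and 4.12 times at the chromosome 1 peak. Both peaks were chosen with these values known. Of the other 14, 8 lie in 1 gene, SAE1 (part of the enzyme that activates SUMO), so the background is not one of independent genes. Before scaling, tags at the SAE1 peaks were closer, from 1668 in WT and 1587 in OE at the tallest to 52 and 37 at the lowest. The OE IP held 3.04 times the tags of the WT IP, so every tag ratio rests on scaling by library total. Whether that scale suits these libraries was not tested.

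The proportion of the mitochondrial to the chromosome 1 peak was not distinguished between genotypes. The MT-ND4 summit had 3.44 times the tags of the chromosome 1 summit in WT and 3.49 times in OE, and the OE over WT ratio of these was 1.02 (exact conditional 95% interval 0.696 to 1.46), which leaves room for a change of that size in either direction. Reads from mitochondrial RNA that were placed on the copy, or the reverse, were not tested for. Input per library depth was lower in OE at 4 of the 16 shared peaks: these 2, RAD21 and RMRP. The median over the other 14 was 2.34 times WT. It was set by SAE1 peaks where the WT background was the genome-wide rate, 0.224 tags, and the OE background 1 input tag. RAD21 had 3 input tags in WT and 2 in OE, and RMRP, like the chromosome 1 peak, had 2 and 1. So few tags leave these input ratios wide open.

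After the chromosome 1 copy, the peaks nearest to the mitochondrial one in OE over WT tag ratio, over the 2 IP libraries, were those at EEF1A1 and at a position outside genes on chromosome 4. EEF1A1, a translation elongation factor, had 36 tags in WT and 138 in OE, a ratio of 1.26 (0.868 to 1.87). The chromosome 4 position had 35 and 84, a ratio of 0.789 (0.526 to 1.21). Unlike the mitochondrial peak, both had a lower fold in OE, 3.52 against 4.67 and 2.65 against 7.44.

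**Figure D4:**
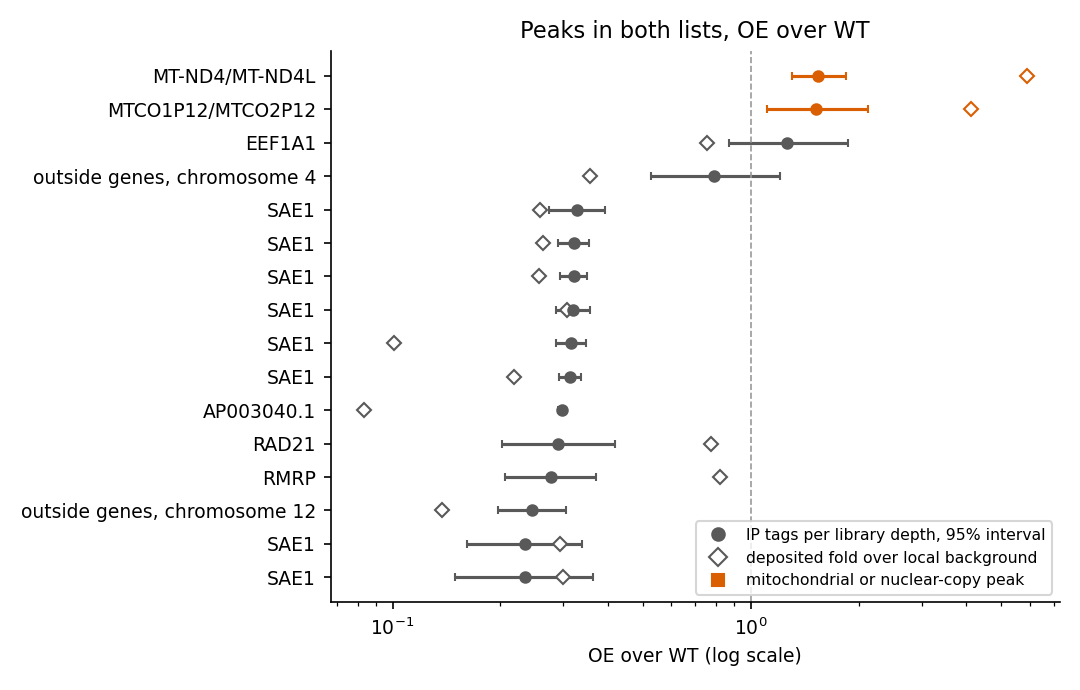
OE over WT on a log axis for the 16 peaks in both lists, with depth-scaled IP tags as points with 95% intervals, the ratio of deposited folds as diamonds, and the dashed line at 1; each SAE1 row is a separate peak. The mitochondrial and chromosome 1 copy peaks, in orange, are the 2 with both values above 1.

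The other genes of the mitochondrial system are given by counts. Of all annotated genes, 0.0443% lay under a WT peak and 0.0392% under an OE peak, 26 and 23 genes. Of 37 mitochondrially encoded genes, 3 lay under a WT peak and 10 under the single OE peak, which were 7 of 13 protein genes and 3 of 22 tRNA genes. The peaks chose these genes, so nothing is read from the shares. The other ribosomal RNA, MT-RNR1, had no peak in either list. Among 108 nuclear genes of the respiratory chain and ATP synthase none had a peak, and 4 had listed splicing events, against 1.73% of all protein-coding genes (345 of 19936). They were NDUFV1 with 4 events and NDUFB2, UQCRB and COX4I1 with 1 each. Of 19 genes for synthesis, processing and decay of mitochondrial RNA, such as the polymerase POLRMT and the RNA-binding protein LRPPRC, none had a peak and FASTK had 1 retained-intron event.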

How the data were processed

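Peak calling by the authors used MACS 2.1.0.20150420, per the file headers, with a p cutoff of 0.005 and duplicate tags kept; WT and OE were each called from their own IP and input. For every summit the deposited lists hold the pileup signal (scaled down to input depth), the fold, a ratio to the local input estimate, and p and q on a −log10 scale. The submitters' processing notes name FastQC 0.11.5 and HOMER. The aligner and genome build are not given in the sources used here. Of the 8 genes, 8 have the same start in RefSeq on GRCh38.p14 and 7 the same end.

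IP tags were recovered as pileup times IP over input tags, and all values were whole within 0.1. Background was (pileup + 1) / fold − 1. It was assigned to the genome-wide rate where equal to it, and otherwise to the smallest window (the summit, 1000 or 10000 bases) that gave whole input tags. All summits were resolved. The procedure was tested on simulated data for the summit and the window of 1000 bases, leaving out 1000-base backgrounds near a whole number. Assignments to 10000 bases, as at MT-CO2, or to the genome-wide rate were not simulated. Peaks were shared at an overlap of 1 base. Where a peak had several summits, the OE summit nearest to the WT one was used. Genes and lists were chosen with earlier results of these data known. The rule names the 8 genes, other mitochondrial genes under their peaks, other copies with a peak, and the 2 shared peaks outside these nearest in tag ratio to the mitochondrial one. SAE1, RAD21, RMRP, MT-RNR1, AL669831.3, MIR12136, copies without a peak and the list genes with splicing events were named after their values were seen. Python 3.11.15 and scipy 1.17.1 were used. Splicing tables served only to look up gene names.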

Additional observations from a re-analysis of the deposited data

How the results depend on the processing

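Of 16 alternatives to 6 results, 9 left the value in the same range and none turned the direction of an OE over WT ratio. Some of the 9 could not have moved. A stricter overlap rule kept both shared peaks, since 100% of the shorter peak was overlapped in each. The limit of q under 0.05 left the OE results as they were, since all 11 OE summits met it. Counts within 1.5-fold were treated as the same, so 2 of 3 WT summits counted as such. The tag ratio at MT-ND4L and MT-ND4, 1.54, was 1.63 with the tallest OE summit and 1.45 with the mean of all 8. It was 2.95 on the deposited pileup, which is scaled to each input, and 6.35 relative to local background. The ratio between MTCO1P12 and MTCO2P12, 1.52, was 2.91 and 5.81 on these scales, the last on 2 and 1 input tags. At q under 0.05 the WT list kept 1 of 3 summits, and no nuclear one, so no WT fold ratio could be given. Only 5 of 11 OE summits, and 2 of 3 in WT, lay inside 1 of the 8 genes. The OE fold ratio of nuclear over mitochondrial summits, 0.826, was 1.13 with geometric means and 0.825 without the MT-CO2 summit, an alternative chosen after seeing the data. No paired analysis was possible because each group has 1 library. Depth limits the nuclear copies, whose OE backgrounds rest on 1 input tag each.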
